A study of Rattus norvegicus with 44 samples.

Results

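Egr1, Jun, Dusp1 and Ier3 are 4 immediate early genes that were followed here across 44 arrays of rat liver RNA. They were taken by their gene symbols, and every probe set annotated with 1 of these symbols alone was used, 13 in all: 4 for Egr1, 4 for Jun, 3 for Dusp1 and 2 for Ier3. They are 4 of 4736 named genes on the array, and all 13 probe sets passed the filter on dim signals.

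All livers came from male Wistar rats of 8 weeks that were dosed by oral gavage once a day and killed by carbon dioxide 24 h after the last dose. The compounds are known by the code names R1 and R2 only, and the vehicle was a citric acid buffer. Study 1 (24 h) held 3 vehicle arrays and R1 at 10 (4 arrays), 30 (3) and 100 mg/kg/day (3), and study 4 (24 h) held 4 vehicle arrays and R2 at 300 mg/kg/day (5). Study 2 (336 h) held 4 vehicle arrays and R1 at 20 (5) and 100 mg/kg/day (4), and study 3 (336 h) held 5 vehicle arrays and R1 at 30 mg/kg/day (4). Each dose was compared with the vehicle of its own study, so doses of the same study share their vehicle arrays.

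Immediate early genes are switched on within minutes of a growth factor, cytokine, hormone or stress signal, without new protein synthesis, and their short-lived RNAs soon fall again. MAP kinases carry much of this signal to transcription factors already bound at the promoters. Egr1 encodes a zinc finger transcription factor, and Jun encodes a subunit of the AP-1 transcription factor that is needed in liver regeneration. Dusp1 encodes a nuclear phosphatase that removes phosphate from MAP kinases and so limits the signal, and it is also a target of glucocorticoid hormones. Ier3 encodes a small stress-inducible protein linked to cell survival and to MAP kinase signalling.

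The 250 bases before the start of the RefSeq gene models (GRCr8) are shown for Egr1 and Dusp1. Promoter sequences were found for these genes only, and not for Jun or Ier3. Egr1 and Dusp1 fell at the same dose, and so did Jun. Capitals mark matches to the CArG box, the binding motif of serum response factor, and to TGACG, the core of the cAMP response element, each searched on both strands.

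Egr1: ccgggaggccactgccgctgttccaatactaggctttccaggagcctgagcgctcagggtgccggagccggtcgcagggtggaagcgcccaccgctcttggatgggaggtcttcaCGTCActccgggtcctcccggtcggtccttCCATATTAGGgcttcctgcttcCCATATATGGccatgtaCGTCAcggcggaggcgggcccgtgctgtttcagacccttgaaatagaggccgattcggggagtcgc

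Dusp1: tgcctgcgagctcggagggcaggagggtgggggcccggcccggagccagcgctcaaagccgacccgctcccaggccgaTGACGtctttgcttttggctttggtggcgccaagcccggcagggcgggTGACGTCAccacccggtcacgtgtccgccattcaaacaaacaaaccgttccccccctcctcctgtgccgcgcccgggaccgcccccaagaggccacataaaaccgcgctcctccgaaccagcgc

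The first is chr18:26736828-26737077 and the second chr10:17184603-17184852, both on the plus strand. The Egr1 stretch held 2 CArG box matches, at 105 to 96 and at 83 to 74 bases before the start, which Dusp1 lacked within these letters. Such a match was present in 1.5% of 33469 promoter stretches of the same length. TGACG was matched 2 times for Egr1 and 3 times for Dusp1, where 2 of the matches overlap in the full palindrome TGACGTCA at 124 to 117 bases before the start. Of all promoter stretches, 18.2% held TGACG and 1.59% held TGACGTCA. GGGCGG, a motif of Sp factors, was matched 2 times in Dusp1 and in 30.5% of all stretches. These matches describe letters, not binding in these livers.

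Values are deposited intensities, which had the same distribution on every array and are therefore relative within an array. Differences are log2 differences ± SE between group means from limma, fitted on log2(intensity + 2.895) over all 6361 probe sets tested, which understates changes of dim probe sets. The threshold for a call was 0.05 for the p-value after Benjamini-Hochberg adjustment, and a gene is given by its brightest probe set unless another is named. Replicates are numbered in the labels with no word on separate animals, so the p-values cover only the spread among these arrays, which may be technical. Arrays of a group correlated at 0.924 to 0.974. All 7 hepatocyte markers on the array were above the filter, and their summed intensity lay between 40596 and 55424 in the 44 arrays. This sum does not show changes of single markers. Ass1 was called lower in every dose group except R1 10 mg/kg/day. Cps1 was called lower at R1 100 mg/kg/day at both times, at R1 30 mg/kg/day for 336 h and with R2. Apoa1 was called higher at R1 100 and 30 mg/kg/day for 336 h. In whole liver, fewer cells of a type and less RNA per cell cannot be told apart.

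The 4 genes were called in different comparisons. At R1 20 mg/kg/day for 336 h, 3 of the 4 genes fell (Egr1, Jun and Dusp1), where 1.89% of all tested probe sets were called lower. At R1 100 mg/kg/day for 336 h, Ier3 rose and Egr1 fell, with 5.11% of probe sets called higher and 5.2% lower. At R1 30 mg/kg/day for 336 h and at R2 300 mg/kg/day for 24 h, 1 gene fell, Dusp1, beside backgrounds of 6.01% and 7.88% called lower. After 24 h of R1, none of the 4 genes was called at 10 mg/kg/day (background 1.24% in either direction) or at 30 mg/kg/day (1.73%), and at 100 mg/kg/day Ier3 alone rose (3.96% called higher), a call that ended when any of 4 of the 6 arrays was left out (adjusted p of up to 0.243). Neither Egr1 fall, nor the Dusp1 falls at R1 30 mg/kg/day and with R2, was called against the vehicle of the other study of the same time. The median log2 difference of the 4 genes was -1.81 at R1 20 mg/kg/day, against -0.01 over all tested probe sets.

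**Figure D1:**
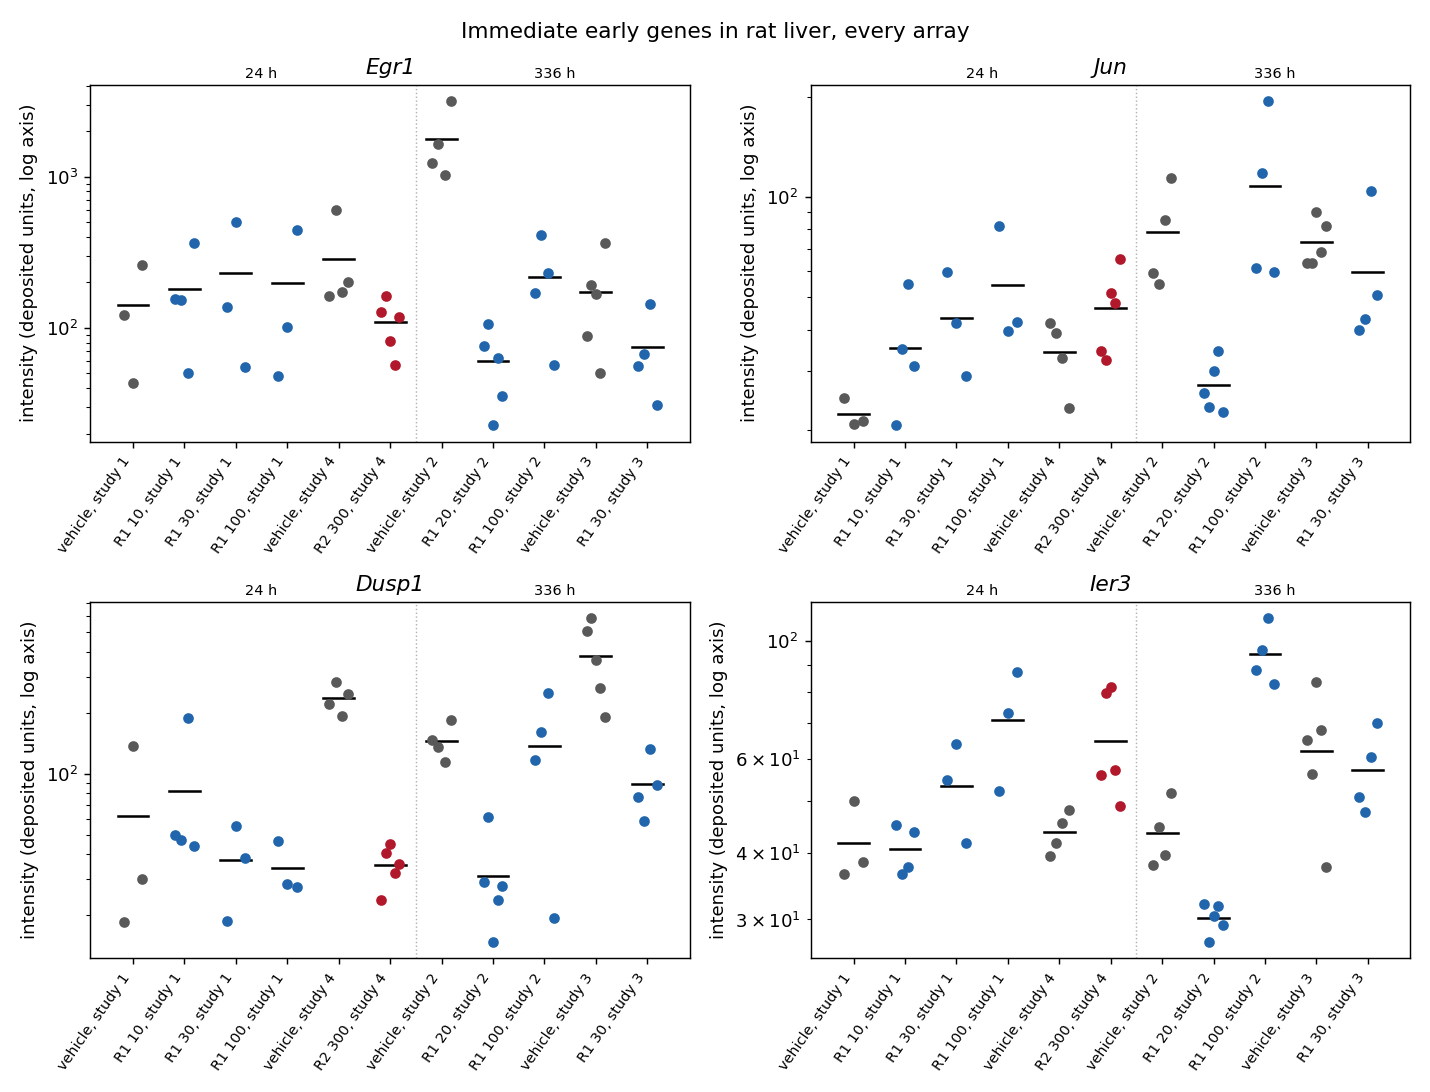
Intensity of each gene's brightest probe set on every array (log axis, 1 panel per gene), by group, with vehicle in grey, R1 in blue and R2 in red; doses are in mg/kg/day and bars are arithmetic group means. The 4 Egr1 values of the study 2 vehicle, from 1022 to 3160, lie above the other 40 arrays, and the 5 Ier3 values at R1 20, from 27.2 to 32.0, lie below the other 39.

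Egr1 was the most variable of the 4 genes, and 1 vehicle group set most of its range. On the study 2 vehicle arrays its intensity was 1237, 1636, 1022 and 3160. No other array of the series exceeded 599.5. The mean of that group was 1764 ± 965 (SD, n = 4), and that of the lowest group, R1 20 mg/kg/day, was 60.6 ± 32.9 (SD, n = 5). The other 10 groups had means between 60.6 and 285, and each overlapped its neighbour in the order of means.

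Under R1 at 20 mg/kg/day for 336 h the Egr1 intensities were 75.5, 105.9, 22.7, 63.3 and 35.6. They lay under all study 2 vehicle values, as for 4.34% of probe sets. The mean fell 29.1-fold, a log2 difference of -4.84 ± 0.63 (limma adjusted p = 3.51e-07). At R1 100 mg/kg/day for 336 h the intensities were 171, 415, 232 and 56.5, again with no overlap, as for 7.73% of probe sets. Here Egr1 fell by 3.17 ± 0.66 on the log2 scale (adjusted p = 5.76e-04). Between these doses the difference was 1.67 ± 0.63 (adjusted p = 0.169), with overlapping groups.

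In study 3, also at 336 h, the vehicle arrays gave Egr1 intensities of 87.8, 193, 167, 50.1 and 365. R1 at 30 mg/kg/day gave 56.1, 67.2, 143 and 30.8, within or under the vehicle range, and the difference of -1.09 ± 0.63 was not called (adjusted p = 0.342). After 24 h the vehicle arrays of study 1 read 123, 43.5 and 260.2, and all doses of R1 overlapped them. Their differences were 0.36 ± 0.72 at 10, 0.48 ± 0.77 at 30 and 0.21 ± 0.77 at 100 mg/kg/day (adjusted p of 0.895 to 0.942). With R2 at 300 mg/kg/day the values were 128, 163, 81.7, 56.6 and 119. They lay under all study 4 vehicle values (164, 599.5, 173 and 203), as for 6.81% of probe sets. That difference was -1.21 ± 0.63 (adjusted p = 0.205), while a second Egr1 probe set, M18416_at, fell by 1.80 ± 0.62 (adjusted p = 0.0412).

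The vehicle livers of studies 2 and 3 received the same buffer for the same time. Their Egr1 levels did not overlap, as for 10.9% of probe sets in this direction. Study 2 exceeded study 3 by 10.2-fold, a log2 difference of 3.49 ± 0.63 (adjusted p = 6.66e-05). Egr1 was the only 1 of the 4 genes called higher in this comparison, beside a background of 9.29% called higher and 8.55% called lower. Against the study 3 vehicle, an alternative added after seeing the data, the Egr1 difference became -1.34 ± 0.59 at R1 20 mg/kg/day (adjusted p = 0.0938) and 0.32 ± 0.63 at R1 100 mg/kg/day (adjusted p = 0.758). Conversely, R1 30 mg/kg/day of study 3 differed from the study 2 vehicle by -4.58 ± 0.66 (adjusted p = 8.91e-07). The size of the Egr1 fall, and whether it was called, thus followed the vehicle used. With its own vehicle, the fall at R1 20 mg/kg/day ranged from -4.89 to -3.05 over 10 other settings (adjusted p of 2.88e-08 to 1.35e-05), and that at R1 100 mg/kg/day from -3.19 to -2.23 (2.12e-05 to 0.00127).

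Egr1 also gave the only called difference between the effects of the same dose at different times. The effect of R1 100 mg/kg/day at 336 h was lower than that at 24 h by 3.37 ± 1.01 on the log2 scale (adjusted p = 0.0386), where 3.13% of probe sets were called lower. Time and study cannot be told apart in it. Leaving out 1 array ended this call in 8 of 14 cases, with adjusted p of up to 0.188. These were the study 1 vehicle replicates 1 and 2, the R1 100 replicates 2 and 3 at 24 h, the study 2 vehicle replicates 2 and 4, and the R1 100 replicates 1 and 4 at 336 h. For R1 30 mg/kg/day none of the 4 genes differed between times beyond the threshold (adjusted p of 0.298 to 0.717, background 0.959%).

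**Figure D2:**
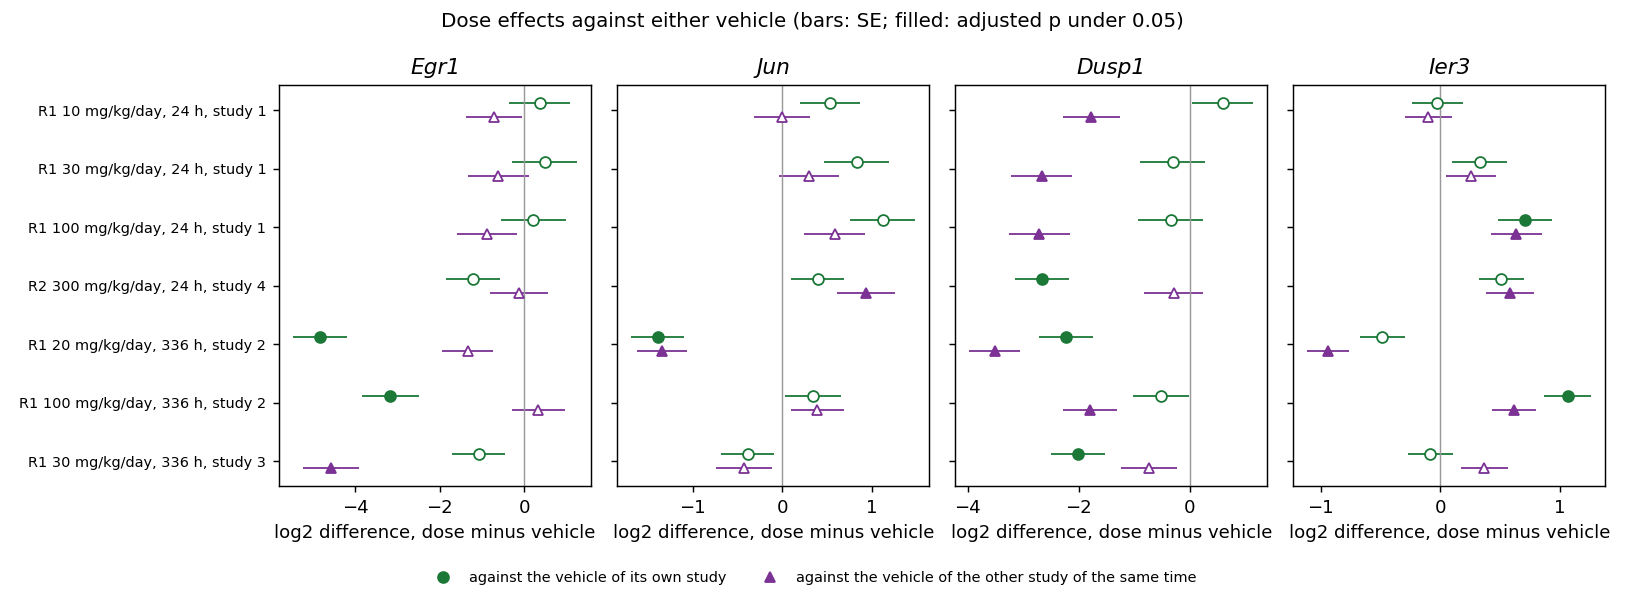
Log2 differences (x axis, 1 panel per gene) of the 7 dose groups from the vehicle of their own study (green circles) and of the other study of the same time (purple triangles), with SE bars; filled symbols have an adjusted p under 0.05. Egr1 at R1 100 mg/kg/day and 336 h moves from -3.17 to 0.32 with the vehicle, while Jun at R1 20 mg/kg/day stays at -1.39 and -1.34.

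Jun was dimmer and moved over a narrower range, with group means from 22.3 to 108. The highest mean was that of R1 100 mg/kg/day at 336 h (108 ± 63.4, SD, n = 4) and the lowest that of the study 1 vehicle (22.3 ± 2.29, SD, n = 3). All neighbours in the order of the 11 means overlapped. In study 2 the vehicle arrays read 59.3, 54.8, 85.6 and 114, and those of R1 20 mg/kg/day read 25.7, 23.5, 30.0, 34.4 and 22.5. These groups did not overlap, as for 4.34% of probe sets in this direction. Jun fell by 1.39 ± 0.30 on the log2 scale (limma adjusted p = 0.00176).

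The higher dose in the same study had Jun intensities of 61.4, 118, 194 and 59.5, which overlapped the vehicle (0.34 ± 0.31, adjusted p = 0.624). The 2 doses did not overlap, as for 2.33% of probe sets in this direction. Jun was higher at 100 than at 20 mg/kg/day by 1.73 ± 0.30 (adjusted p = 5.77e-05), and 3 of the 4 genes were higher in this comparison, where 2.09% of probe sets were called higher. Vehicle levels of Jun at 336 h overlapped, with study 3 at 63.6, 63.3, 89.9, 68.6 and 82.0 (study 2 minus study 3, 0.04 ± 0.30, adjusted p = 0.942). Against the study 3 vehicle the difference at R1 20 mg/kg/day was -1.34 ± 0.28 (adjusted p = 2.60e-04), and with its own vehicle it ranged from -1.45 to -1.22 over 10 other settings (adjusted p of 2.10e-04 to 0.0158).

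At 24 h, Jun intensities in study 1 were 24.9, 20.8 and 21.2 with vehicle and 81.7, 39.6 and 42.3 at R1 100 mg/kg/day. The groups did not overlap, as for 12.3% of all tested probe sets in this direction, and the difference of 1.12 ± 0.36 was not called (adjusted p = 0.0530). At 30 mg/kg/day the values of 59.5, 42.0 and 28.9 were also all above vehicle, as for 8.27% of probe sets (0.83 ± 0.36, adjusted p = 0.360). At 10 mg/kg/day they overlapped it (0.53 ± 0.34, adjusted p = 0.645). R2 at 300 mg/kg/day overlapped its vehicle (0.39 ± 0.30, adjusted p = 0.421), and so did R1 at 30 mg/kg/day for 336 h (-0.39 ± 0.30, adjusted p = 0.522).

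Dusp1 was called in 5 of the 13 comparisons, and as for Egr1 its level differed between vehicle groups of the same time. In the study 3 vehicle its intensities were 507, 588, 364, 264 and 191, and in the study 2 vehicle 147, 136, 114 and 185. The study 4 vehicle read 220.0, 284, 193 and 249, whereas that of study 1 read 18.4, 137 and 30.0. At 24 h the study 4 vehicle was 3.84-fold above that of study 1, by 2.36 ± 0.55 on the log2 scale (limma adjusted p = 0.00516), with 2.63% of probe sets called higher. Without the study 1 vehicle replicate 1, this difference was 1.81 and its adjusted p 0.0922. The means in the study 4 and study 1 vehicles were 153 and 72.7 for U02553cds_s_at, and 89.3 and 25.0 for S81478_s_at. Of the 13 probe sets of the 4 genes, 2 were called higher there. At 336 h the study 2 vehicle was under all of the study 3 vehicle, as for 9.9% of probe sets (-1.29 ± 0.48, adjusted p = 0.0566). A second probe set, U02553cds_s_at, was called lower (-1.21 ± 0.41, adjusted p = 0.0319), the only 1 of the 13 probe sets called lower there.

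With R2 at 300 mg/kg/day the Dusp1 intensities were 23.8, 40.7, 44.7, 32.1 and 35.6. They lay under all study 4 vehicle values, as for 6.81% of probe sets. Dusp1 fell 6.68-fold, a log2 difference of -2.66 ± 0.48 (adjusted p = 6.86e-05), and all 3 of its probe sets were called. Over 10 other settings this fall ranged from -2.73 to -2.44 (adjusted p of 1.95e-06 to 7.60e-04). Set against the vehicle of study 1 instead, the treated arrays differed by -0.29 ± 0.52 (adjusted p = 0.729). None of the R1 doses at 24 h was called against the study 1 vehicle (0.59 ± 0.55, -0.30 ± 0.58 and -0.35 ± 0.58 at 10, 30 and 100 mg/kg/day, adjusted p of 0.791 to 0.917). Against the study 4 vehicle all 3 of these doses were called lower, by 1.77, 2.67 and 2.71.

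At R1 20 mg/kg/day for 336 h, Dusp1 intensities were 29.0, 61.4, 14.7, 23.8 and 27.7. They lay under all study 2 vehicle values, as for 4.34% of probe sets. The fall was 2.23 ± 0.48 on the log2 scale (adjusted p = 0.00196), with a range of -2.31 to -2.01 over 10 other settings (adjusted p of 1.76e-04 to 0.0196). Against the study 3 vehicle the difference was -3.51 ± 0.45 (adjusted p = 7.71e-08). At 100 mg/kg/day the values were 117, 160, 252 and 19.3, so that 3 arrays were at vehicle level or above and 1 was far under it (-0.51 ± 0.51, adjusted p = 0.662). That difference ranged from -0.54 to -0.42 over 10 other settings (adjusted p of 0.595 to 0.728), but against the study 3 vehicle it was -1.80 ± 0.48 and called (adjusted p = 0.00422). The dose difference of 1.72 ± 0.48 was called (adjusted p = 0.0285), but with overlapping groups, and leaving out 1 array ended the call in 6 of 9 cases. These were the R1 20 replicates 3, 4 and 5 and the R1 100 replicates 1, 2 and 3, with adjusted p of up to 0.217. The dose difference ranged from 1.56 to 1.77 over 10 other settings (adjusted p of 0.00335 to 0.0972). It was not called with arrays weighted by quality, with a replicate block or with the study fitted alone.

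In study 3, R1 at 30 mg/kg/day gave Dusp1 intensities of 76.9, 58.6, 133 and 87.8. They lay under all vehicle values of that study, as for 7.18% of probe sets. Dusp1 fell by 2.01 ± 0.48 on the log2 scale (adjusted p = 0.00287), and its other 2 probe sets fell as well. Compared with the study 2 vehicle the difference was -0.73 ± 0.51 (adjusted p = 0.327). With its own vehicle, this fall ranged from -2.23 to -1.94 over 10 other settings (adjusted p of 3.15e-04 to 0.00563). Of the Dusp1 falls, that at R1 20 mg/kg/day for 336 h was the only 1 called against both vehicles of its time. The study 3 vehicle lay above all of the study 2 vehicle, so that fall could only grow against it and gains no support from it. Such comparisons across studies also mix study with dose.

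Ier3 had the smallest SEs of the 4 genes and the narrowest range, with group means from 30.2 to 94.4. In study 2 the vehicle arrays read 38.0, 44.7, 39.6 and 51.8, and those of R1 100 mg/kg/day read 88.2, 96.1, 110.3 and 83.0. These groups did not overlap, as for 6.82% of probe sets in this direction. Ier3 rose 2.17-fold, a log2 difference of 1.07 ± 0.20 (limma adjusted p = 8.80e-05), and its second probe set, X96437mRNA_g_at, rose by 1.64 ± 0.27 (adjusted p = 1.26e-05). Against the study 3 vehicle, which read 65.2, 56.3, 83.5, 67.9 and 37.6, the rise was 0.62 ± 0.19 (adjusted p = 0.0117). With its own vehicle it ranged from 0.98 to 1.36 over 10 other settings (adjusted p of 4.45e-06 to 5.39e-04).

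The lower dose, 20 mg/kg/day, had Ier3 intensities of 32.0, 27.2, 30.5, 31.8 and 29.2. These were the lowest 5 values of the 44 arrays, yet the difference from the study 2 vehicle was -0.48 ± 0.19 and not called (adjusted p = 0.157, and 0.0594 to 0.543 over 10 other settings). Against the study 3 vehicle it was -0.93 ± 0.18 and called (adjusted p = 6.69e-05). The second probe set did not show this low level, with values of 34.5, 31.6, 35.5, 44.4 and 30.1 that overlapped its vehicle values of 27.4, 40.6, 37.3 and 50.0. Between 100 and 20 mg/kg/day Ier3 differed by 1.55 ± 0.19 (adjusted p = 3.29e-08).

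At 24 h, R1 100 mg/kg/day gave Ier3 intensities of 52.2, 73.3 and 87.4. They lay above the vehicle values of 36.6, 50.0 and 38.5, as for 12.3% of probe sets. The rise of 0.71 ± 0.23 was at the threshold (adjusted p = 0.0496). It was not called without vehicle replicate 1 or 3 or without R1 100 replicate 2 or 3, with adjusted p of up to 0.243. The second Ier3 probe set was not called, with overlapping values and means of 67.1 at this dose and 40.8 in the vehicle. The rise from 10 to 100 mg/kg/day was 0.74 ± 0.21 (adjusted p = 0.0359), where 2.31% of probe sets were called higher. This call ended when R1 10 replicate 1, 2 or 3 or R1 100 replicate 2 or 3 was left out, with adjusted p of up to 0.228. At 10 and 30 mg/kg/day the differences from vehicle were -0.02 ± 0.21 and 0.33 ± 0.23 (adjusted p = 0.983 and 0.682).

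R2 at 300 mg/kg/day gave Ier3 intensities of 56.0, 79.7, 81.8, 57.2 and 49.0. They lay above all vehicle values (39.4, 41.8, 45.5 and 48.2), as for 6.78% of probe sets. The difference of 0.51 ± 0.19 was not called (adjusted p = 0.0551), and without R2 replicate 4 or 5 it was called (adjusted p = 0.0496 and 0.0279). It was also called against the study 1 vehicle (0.59 ± 0.20, adjusted p = 0.0303), and over 10 other settings with its own vehicle the adjusted p was 0.0327 to 0.161. R1 at 30 mg/kg/day for 336 h gave 51.0, 47.6, 60.5 and 70.1, within its vehicle range (-0.08 ± 0.19, adjusted p = 0.882). Vehicle levels of Ier3 did not differ beyond the threshold at 24 h (0.07 ± 0.21, adjusted p = 0.892) or at 336 h (-0.45 ± 0.19, adjusted p = 0.0888).

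The probe sets of a gene mostly followed each other. Over the 44 arrays the brightest Egr1 probe set correlated at 0.94 with M18416_at and at 0.73 with rc_AI176662_s_at, but at 0.10 with U75398_s_at. The last had group means between 22.6 and 37.8, the highest also that of the study 2 vehicle. The other Dusp1 probe sets correlated at 0.93 and 0.91 with the brightest, the second Ier3 probe set at 0.80, and the 3 dimmer Jun probe sets at 0.66 to 0.77. These points share arrays and group differences and are a description. At R1 20 mg/kg/day for 336 h, 8 of the 13 probe sets were lower and none higher, beside 1.89% of all tested probe sets called lower. These 8 belong to Egr1, Jun and Dusp1 and are repeated readings of 3 genes on the same arrays.

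**Figure D3:**
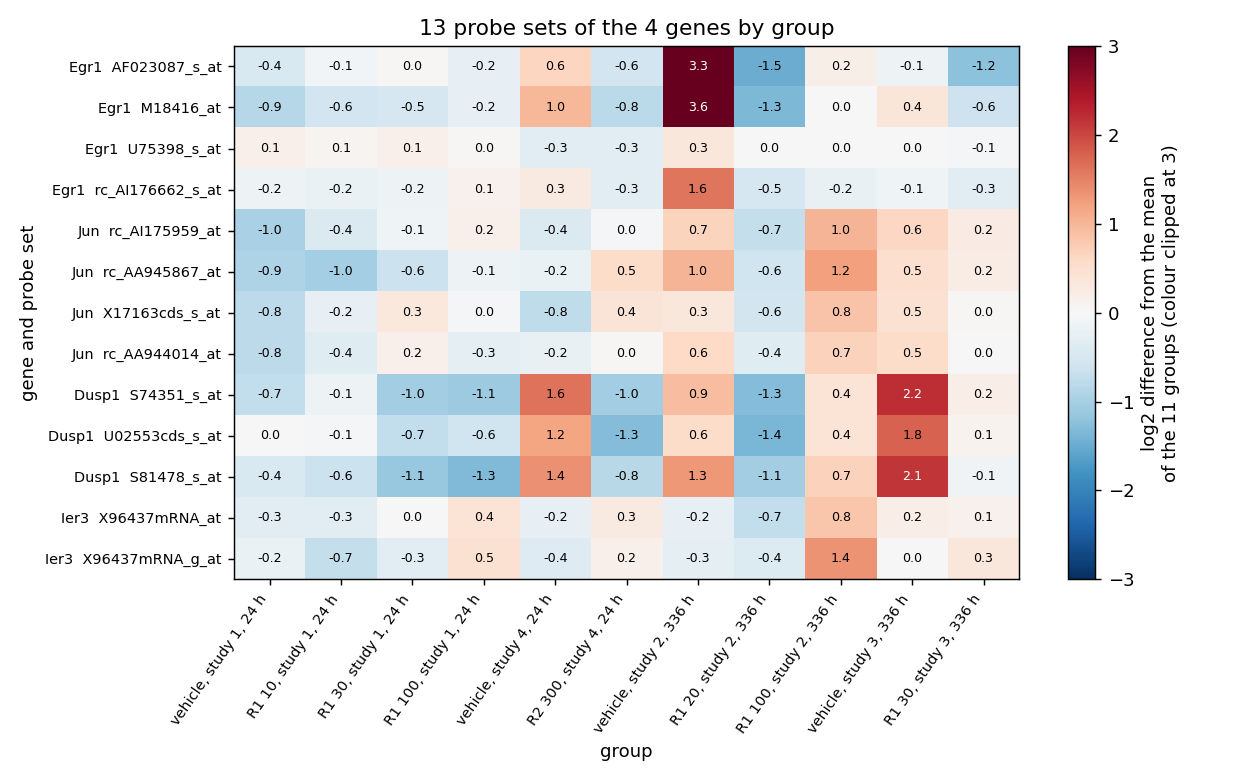
Group means of log2(intensity + 2.895) of the 13 probe sets (rows) in the 11 groups (columns), each as the difference from that probe set's mean over the groups. All 4 Egr1 probe sets are highest in the study 2 vehicle, and U75398_s_at, with group mean intensities of 22.6 to 37.8, has the palest row of them.

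Other immediate early genes were described from 2 lists of 53 further genes, of which 37 were on the array and 32 tested. At R1 20 mg/kg/day for 336 h, where 1.89% of all tested probe sets were called lower, 2 of the 32 were lower and none higher. They were Hes1, a transcriptional repressor of the Notch pathway (-1.48 ± 0.40), and Zfp36l1, which promotes decay of AU-rich mRNAs (-0.99 ± 0.27). The median of the 32 genes was -0.29 there, against -0.01 over all tested probe sets. Fos, the usual partner of Jun in AP-1, and Junb were dim, with group means of 19.9 to 54.8 and 13.1 to 62.6, and were called in none of the 13 comparisons.

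Klf6, a zinc finger transcription factor, was higher at R1 100 mg/kg/day for 24 h (1.31 ± 0.41), with R2 (1.30 ± 0.34) and at R1 30 mg/kg/day for 336 h (1.44 ± 0.34). With R2, 3 of the 32 genes were higher and 1 lower, where 7.44% of all tested probe sets were called higher and 7.88% lower: Klf6, the stress-induced factor Atf3 (0.83 ± 0.29) and the polyamine enzyme Odc1 (0.86 ± 0.27) rose, and the EGF receptor inhibitor Errfi1 (-0.96 ± 0.30) fell. At R1 30 mg/kg/day for 336 h, 2 genes were higher, Klf6 and Odc1 (1.11 ± 0.27), beside a background of 5.27% called higher. Mean Klf6 intensity was 57.7 there, against 19.4 in its own vehicle and 56.2 in the study 2 vehicle. For Odc1 these means were 134.9, 63.7 and 134.3. At R1 100 mg/kg/day for 336 h, 1 gene was lower, the NF-kappaB inhibitor Nfkbia (-0.87 ± 0.25), beside a background of 5.2% called lower. Between 100 and 20 mg/kg/day at 336 h, where 2.09% of probe sets were called higher, 2 of the 32 genes were higher. These were the small GTPase Rhob (1.45 ± 0.37) and Ppp1r15a (0.85 ± 0.24), which directs dephosphorylation of the initiation factor eIF2alpha. At R1 30 mg/kg/day for 24 h, Ppp1r15a alone was called (1.07 ± 0.30, background 1.48% called higher), and at 10 mg/kg/day none was.

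The signalling genes upstream changed in few cases. Of 15 tested genes of the MAP kinase cascade, Map3k1, a kinase that activates the JNK branch, was higher at R1 100 (0.93 ± 0.25) and at R1 30 mg/kg/day (1.05 ± 0.23) for 336 h, and higher at 100 than at 20 mg/kg/day (0.85 ± 0.23). Map2k6, which activates the stress kinase branch, was lower with R2 (-1.20 ± 0.30), and the RAF family kinase Araf was lower in the study 2 than in the study 3 vehicle (-0.61 ± 0.16). Mapk9 was called lower for the effect of R1 100 mg/kg/day at 336 h against 24 h, where 3.13% of probe sets were called lower. In the 3 Map3k1 comparisons, in the order given, 5.11%, 5.27% and 2.09% of probe sets were called higher. For Map2k6 and Araf, 7.88% and 8.55% were called lower. None of the 15 was called at R1 20 mg/kg/day. Of 3 tested feedback inhibitors of MAP kinases, the ERK phosphatase Dusp6 fell at R1 30 mg/kg/day for 336 h (-1.60 ± 0.33), beside the fall of Dusp1 in the same livers.

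Other genes also differed between the vehicle groups in which Egr1 and Dusp1 differed. Of the 32 further immediate early genes, 4 were higher and 2 lower in the study 2 than in the study 3 vehicle. Over all tested probe sets, 9.29% were called higher and 8.55% lower there. Nfkbia (1.73 ± 0.24), Klf6 (1.49 ± 0.34), Odc1 (1.10 ± 0.27) and Cebpd (0.81 ± 0.21) were higher, and Socs3 (-1.32 ± 0.44) and Cebpb (-0.81 ± 0.19) lower. Heat shock genes were higher too, 4 of the 7 tested: the chaperones Hspa1a (2.90 ± 0.48), Hspb1 (2.30 ± 0.33), Hsph1 (1.30 ± 0.33) and Dnajb1 (0.88 ± 0.30). Hspa1a had a mean of 34.5 in the study 2 vehicle and 1.29 in the study 3 vehicle. It fell at R1 100 mg/kg/day for 336 h (-2.52 ± 0.51), to a mean of 3.27 near the offset, and was the only 1 of the 7 called there. None of the 7 was called at R1 20 mg/kg/day, where Egr1 also fell. At 24 h, where 2.63% of probe sets were called higher, 4 of the 32 were higher in the study 4 than in the study 1 vehicle, and none lower. These were Myc (1.59 ± 0.41), Zfp36 (1.46 ± 0.43), Cebpb (1.13 ± 0.22) and Ppp1r15a (0.94 ± 0.28).

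**Figure D4:**
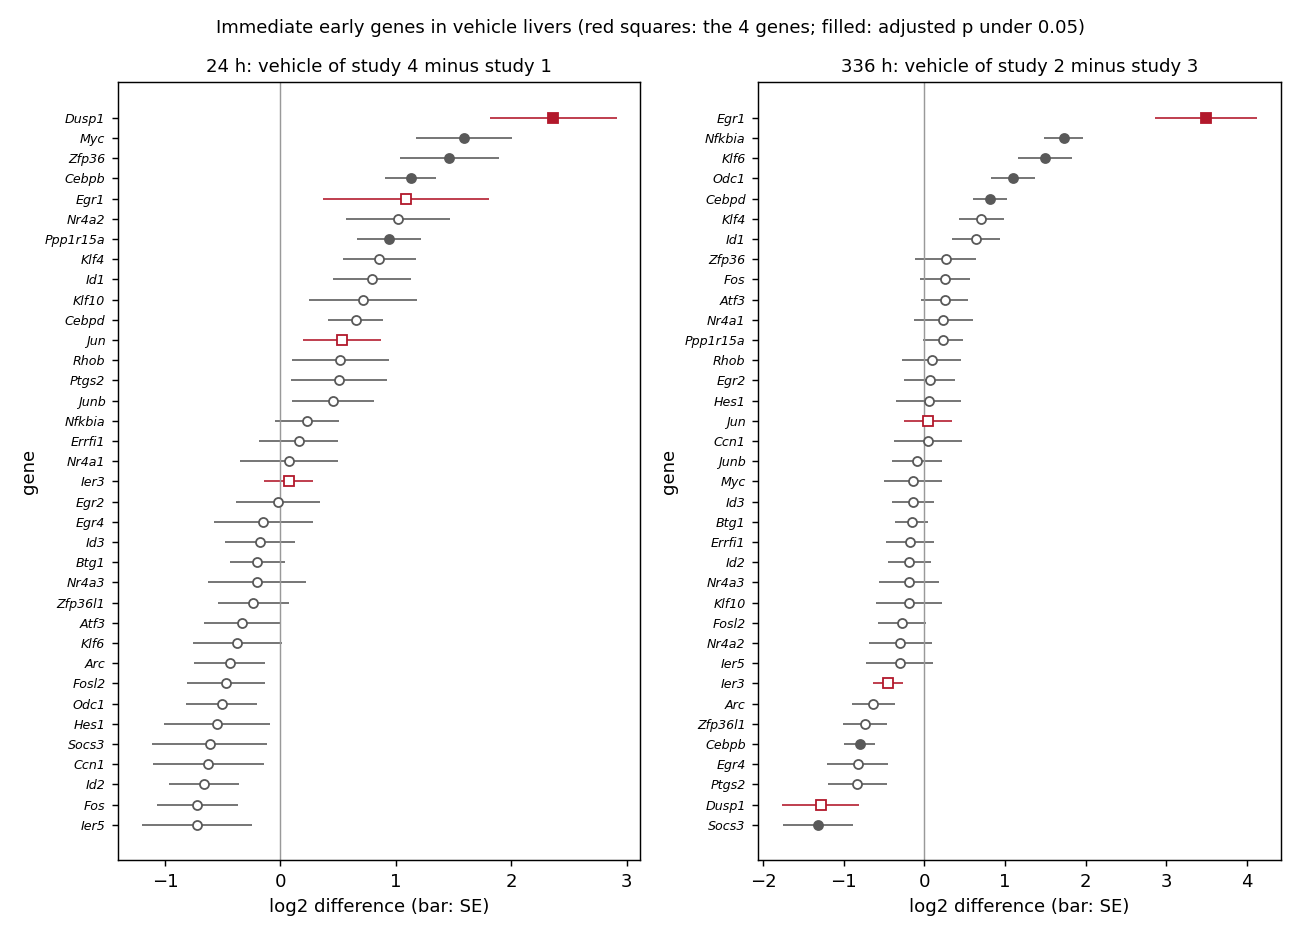
Log2 differences (x axis, SE bars) between the vehicle groups of the same time for the 4 genes (red squares) and the 32 other immediate early genes tested (grey circles), ordered by size; filled symbols have an adjusted p under 0.05. Dusp1 (2.36) leads at 24 h and Egr1 (3.49) at 336 h, while Jun and Ier3 are open symbols in both.

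Markers of other cells and of time of day were read beside these results. Between the study 2 and study 3 vehicles, the summed intensity of 5 Kupffer cell markers overlapped (631 to 1132 and 728 to 1091), with Cd14 of 4 tested markers called lower. The endothelial sum over 5 markers was 146 to 188 and 88.5 to 170 in these groups, with Kdr and Lyve1 called higher. The erythroid sum over 4 markers was 8376 to 11214 and 3882 to 8232, with Hbb and Hbb-b1 called higher. The stellate cell marker Acta2 (2.17 ± 0.53), Krt18 of the bile duct list (0.83 ± 0.17) and the hepatocyte marker Apoa1 were also called higher, and the lymphocyte marker Cd4 lower (-0.67 ± 0.24). Of 8 clock genes tested, which track the time of day at which a liver is taken, none was called between the vehicles at either time or at R1 20 mg/kg/day. With R2, Per2 (-1.35 ± 0.36) and Dbp (-1.50 ± 0.43) were lower and Nr1d2 (1.05 ± 0.29) higher, and at R1 30 mg/kg/day for 336 h Per2 was lower (-1.16 ± 0.36), both beside a fall of Dusp1. At R1 100 mg/kg/day for 336 h, Bmal1 was lower (-1.69 ± 0.52) and Nr1d1 higher (1.53 ± 0.40). Mean Bmal1 intensity was 15.5 there and 18.6 at R1 20 mg/kg/day, where it was not called, against 45.8 in the study 2 vehicle. Dbp and Bhlhe40 were called higher at 100 than at 20 mg/kg/day, where 2.09% of probe sets were called higher.

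Among treated groups, the stellate cell and fibroblast sum over 6 markers was lower at R1 20 (341 to 448) and R1 100 mg/kg/day (308 to 495) for 336 h than in the study 2 vehicle (538 to 765), though none of its 5 tested genes was called. At R1 30 mg/kg/day for 336 h, where Dusp1 fell, this sum was 203 to 314 against 282 to 851 in its vehicle, with Col1a1 and Col3a1 called lower, and with R2 Acta2 was called lower. The erythroid sum at R1 30 mg/kg/day was 1834 to 3722 against 3882 to 8232, with Hbb, Hbb-b1 and Alas2 of its 4 genes called lower. At R1 100 mg/kg/day for 336 h it was 3392 to 7334 against 8376 to 11214, with Hbb-b1 called lower. The endothelial marker Kdr was lower in both of these groups. The Kupffer marker Clec4f was called lower in all 3 groups dosed for 336 h, and Cd14 higher at R1 100 mg/kg/day.

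The bile duct sum over 6 markers consisted mostly of Krt8 and Krt18, keratins that hepatocytes also express. It was higher, without overlap, at R1 20 mg/kg/day (1642 to 2615) than in its vehicle (1152 to 1608), at R1 30 mg/kg/day for 336 h (1747 to 2498 against 771 to 978), with R2 (1369 to 2330 against 704 to 1111) and at R1 100 mg/kg/day for 24 h (1357 to 1577 against 729 to 862). Krt8, Krt18 and Epcam were called higher in the first 3 of these groups and Krt8 and Krt18 in the last. Krt8 and Epcam were also called at R1 100 mg/kg/day for 336 h, where the sums overlapped. After 24 h of R1 at 10 (894 to 1174) and 30 mg/kg/day (928 to 1389) the sums also lay above the study 1 vehicle without overlap. None of the 6 markers was called at these 2 doses. Krt19, Spp1 and Cftr were called in no dose group, and at R1 20 mg/kg/day their means were 14.0, 4.92 and 4.14, against 18.6, 9.49 and 5.17 in the vehicle. The 7 lymphocyte markers, of which 3 were under the filter, summed to between 43.0 and 84.5 in every group. The part of these markers in the results for the 4 genes was not tested.

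Genes most like each of the 4 were sought by correlation over the 44 arrays after removing each group's mean. Only differences between arrays of a group then count, which may be technical. For Egr1 these were Cyp7a1, the rate-limiting enzyme of bile acid synthesis (0.73), Junb (0.59) and Tmod1 (0.53). For Jun they were Fos (0.59), Pgm1 (0.53) and Ntan1 (0.51), and for Dusp1 they were Pdk4 (0.50), Crot (0.50) and Zfp455l1 (0.49). For Ier3 they were Plcg2 (0.60), Sprr1a (0.55) and Foxa2 (0.54). Over the 11 group means the most alike genes were Eif4h (0.79), Mecr (0.79) and Casp6 (0.78) for Egr1, Slc26a2 (0.90), Neurod2 (0.89) and Grk5 (0.84) for Jun, Ppp1cc (0.89), Il1a (0.87) and Gpx1 (0.87) for Dusp1, and Slc26a2 (0.90), Rhob (0.84) and Tlcd1 (0.83) for Ier3. Among the 4 genes, Jun and Ier3 had the highest correlation of group means (0.74), and Egr1 correlated at 0.07 to 0.14 with the other 3 within groups. These are the highest of 3693 genes, over arrays that share a normalization, and are given as a description.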

How the data were processed

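Liver RNA was hybridised to 44 Affymetrix rat arrays, 1 per sample. The deposited values are intensity, made with MAS5 per the submitters' processing notes. Its version and scaling are not given in the sources used here. Every array had the same sorted intensity values in the deposited table (largest difference 0, median 14.5), a quantile normalization that no label states. Of 8799 probe sets, 59 controls were left out, and 7006 had 1 gene symbol, 308 several and 1426 none.

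Before log2, the offset 2.895 (percentile 20 of all values) was added. Probe sets whose highest group mean reached 9.17 (percentile 40) were tested, 6361 for 3693 named genes. Limma 3.58.1 in R 4.3.3 fitted 1 mean per group over 11 groups with a mean-variance trend and 33 residual degrees of freedom. Tests were 2-sided, Benjamini-Hochberg adjusted within each of 13 comparisons over all tested probe sets, and called at 0.05. The procedure was tested on simulated data.

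For each gene, the brightest probe set (mean over the 44 arrays) represents it. From the gene lists, called genes are named, up to 4 per list and comparison, and for each of the 4 genes the 3 most correlated genes. The 4 genes and the lists were chosen with earlier results of these data known. Alternatives were other offsets and filters, centring, no trend, array weights, a replicate block, the mean over a gene's probe sets, each study fitted alone and each array left out. The vehicle of the other study was added after seeing the data and mixes study with dose. The number of arrays limits the precision. Promoter sequences came from RefSeq (GRCr8) and were found for 2 of the 4 genes. Python 3.11.15 with pandas 2.3.3 and matplotlib 3.10.9 made tables and plots.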

Additional observations from a re-analysis of the deposited data

Results flagged for a closer look

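In each group of 4 or 5 arrays, the gap between the most extreme array and its neighbour was set against the range of the group, in 32 checks, and 2 arrays stood far from the rest; chance gives about 1 in 20 groups. Egr1 read 599.5 on replicate 2 of the study 4 vehicle, where the gap was 0.836 of the range. Dusp1 read 188.8 on replicate 3 of R1 10 mg/kg/day in study 1, with a gap of 0.919. The effect of R1 100 mg/kg/day on Egr1 differed between 336 h and 24 h by -3.37 on the log2 scale (limma adjusted p = 0.0386), in a test of the difference itself.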

How the results depend on the processing

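Over 52 values (4 genes in 13 comparisons) none of the 10 planned settings on all arrays reversed a called difference, and each left 47 to 52 on their side of the threshold. With the vehicle of the other study of the same time, added after seeing the data, Dusp1 at R1 10 mg/kg/day reversed to -1.77 and Egr1 at R1 100 mg/kg/day for 336 h to 0.32. That setting gave 1 called gene each at R1 10 and R1 30 mg/kg/day for 24 h, and 2 at R1 100 mg/kg/day for 24 h and 2 with R2. The counts below are of the 4 genes called, and the cause of each move was not tested. For R1 100 mg/kg/day at 24 h the count of 1 became 0 without the filter, with a replicate block, with the mean over probe sets and with the study fitted alone, and 2 with a stricter filter or array weights. For R2 it became 2 with the stricter filter or the replicate block. Between the 336 h vehicles it became 2 with the larger offset, the stricter filter or the mean over probe sets, and 3 with array weights or the replicate block. It went from 3 to 2, through Dusp1, for R1 100 against 20 mg/kg/day with array weights, the replicate block or the study fitted alone. It became 0 for R1 100 against 10 mg/kg/day with the study fitted alone, and 0 for the 100 mg/kg/day effect between times without the filter, without the trend or with studies fitted alone. Leaving out 1 array gave 0 to 1 called genes for R1 100 mg/kg/day at 24 h, 1 to 2 for R2, 0 to 1 between the 24 h vehicles, 1 to 3 between the 336 h vehicles, 0 to 1 for R1 100 against 10 mg/kg/day and 0 to 1 for the effect between times. Replicate numbers did not pair the arrays: same-numbered arrays correlated at -0.09 to 0.13 over 32 pairs, and the replicate block ended 2 calls and added 3 among the 52 values. Dim probe sets near the offset have compressed differences, and groups of 3 to 5 arrays limit all comparisons.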
